A study of Mus musculus with 2 samples.

Results

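CC chemokines are small secreted proteins that attract leukocytes, and 10 of their genes were followed here through the myeloid and lymphoid cells of the mouse colon: Ccl2, Ccl3, Ccl4, Ccl5, Ccl6, Ccl7, Ccl8, Ccl9, Ccl12 and Ccl24. They were found by symbol among the 32285 genes of each count matrix, and all 10 were present once. The study compared RUNX3 fl/fl-Lyz2-Cre mice, in which Cre under the myeloid gene Lyz2 removes the transcription factor Runx3, with RUNX3 fl/fl littermates, so both kinds of mice carried the floxed allele. Per the study's figure captions the cells came from pools of male mice aged 8 weeks (n = 6), while its methods list mice of both sexes, and per the labels they were CD11b+ lamina propria cells, lamina propria being the connective tissue under the gut epithelium. There were 2 libraries, 1 per group, titled Runx3_fl and Runx3. The titles do not tell which library carried Cre, so the libraries are called by their titles and given no genotype.

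Chemokines of this family signal through G protein-coupled receptors on the cells they attract. Ccl2, Ccl7 and Ccl12 act on Ccr2 and draw monocytes out of blood, which matters in the gut because monocytes replenish its macrophages. Ccl3, Ccl4 and Ccl5, of which Ccl3 and Ccl5 act on Ccr1, are made by activated macrophages, neutrophils, NK cells and effector T cells. Ccl6 and Ccl9 are myeloid chemokines of mice that act on Ccr1, mouse Ccl8 acts on Ccr8, and Ccl24 is an eotaxin that attracts eosinophils through Ccr3.

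Cells with 200 to 6000 detected genes and no more than 15% of UMIs from mitochondrial genes were used, leaving 11885 of 12968 deposited cells for the library labelled Runx3_fl and 8167 of 8953 for the library labelled Runx3. A UMI is a molecular tag that counts 1 captured RNA molecule. Kept cells held 136381056 and 65556454 UMIs, with medians of 9573 and 5731 per cell. From here on, pairs of values give the library labelled Runx3_fl first and the library labelled Runx3 second. Runx3 itself was at 151 and 249 counts per 1000000 UMIs (CPM) in the macrophage gate described below, so the transcript was not lower there in the library labelled Runx3, although 3′ tags outside the deleted part of the gene would not show the deletion. Xist, which is transcribed from the inactive X chromosome of female cells, was at 212 CPM over all kept cells of the library labelled Runx3_fl, with a UMI in 29.9% of them, and at 0.183 CPM in the other. Ddx3y, a gene of the Y chromosome, had a UMI in 51.1% and 53.4% of kept cells. Xist without Ddx3y was found in 25.2% of cells of the library labelled Runx3_fl and Ddx3y without Xist in 46.5%, so that library held cells with either transcript, against 0.0122% and 53.3% in the other. Each ratio was therefore also computed without cells holding a Xist UMI. Itgam, which encodes CD11b, was detected in 44.6% and 38.2% of kept cells. The libraries shared 37 cell barcodes, 34 and 30 of them on kept cells.

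Cells were assigned to 7 gates by at least 1 UMI of a marker: Csf1r with C1qa (macrophage), Csf3r (neutrophil), Flt3 (conventional dendritic cell, cDC), Ncr1 (NK), Cd3e (T), Cd79a (B), and Ly6c2 without any of the others (monocyte). They held 395 and 441 macrophage-gate cells, 1047 and 1713 monocyte-gate cells, 1422 and 1632 neutrophil-gate cells, 955 and 492 cDC-gate cells, 1310 and 107 NK-gate cells, 3049 and 425 T-gate cells, and 408 and 1500 B-gate cells. The gates named for monocytes and neutrophils were mixed, so they are called the Ly6c2 gate and the Csf3r gate. In the Csf3r gate 729 and 881 cells also held a UMI of Csf1r, the receptor of monocytes and macrophages, and the neutrophil gene S100a8 stood at 1681 and 18621 CPM. The Ly6c2 gate contained 7 neutrophil markers that summed to 104 and 4111 CPM, 3 hemoglobin genes that summed to 0.555 and 414 CPM, the basophil protease Mcpt8 at 0.185 and 117 CPM and the NK receptor Klrb1c at 35.0 and 9.41 CPM. The B gate held plasma cells as well as B cells, with 5 plasma-cell markers summing to 17011 and 9839 CPM and 7 B-cell markers to 1907 and 2954 CPM, and 127 of 408 and 933 of 1500 of its cells held a UMI of the B-cell gene Ms4a1. Because each group had 1 library, no difference between the libraries has a replicate check, no test was run, and every interval covers counting error only.

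Of the 10 genes, 9 lie on chromosome 11 in 2 groups. Ccl2 (ENSMUSG00000035385, chr11:82035571-82037453), Ccl7 (ENSMUSG00000035373, chr11:82045712-82047525), Ccl12 (ENSMUSG00000035352, chr11:82101845-82103400) and Ccl8 (ENSMUSG00000009185, chr11:82115185-82116799) are all on the plus strand within 81.2 kb. Ccl5 (ENSMUSG00000035042, chr11:83525778-83530518), Ccl9 (ENSMUSG00000019122, chr11:83572919-83578636), Ccl6 (ENSMUSG00000018927, chr11:83587882-83593087) and Ccl3 (ENSMUSG00000000982, chr11:83647844-83649355) on the minus strand, and Ccl4 (ENSMUSG00000018930, chr11:83662584-83664683) on the plus strand, span 139 kb, with 1409 kb between the groups. Ccl24 (ENSMUSG00000004814, chr5:135569937-135573049, minus strand) lies apart. Positions are those of GENCODE M21 on GRCm38, in which all 10 are protein coding. Ccl2 overlaps Gm17268 and Ccl6 overlaps E230016K23Rik, each on the other strand.

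Many chemokine mRNAs carry AU-rich elements in the 3' untranslated region (UTR), built around the letters ATTTA of the DNA, which RNA-binding proteins such as Zfp36 recognise. ATTTA was counted on the transcript strand, overlaps included, in the longest annotated 3' UTR of each gene. Ccl3, Ccl9 and Ccl12 had 5, Ccl6 had 4, Ccl4 and Ccl7 had 2, Ccl2 had 1, and Ccl5, Ccl8 and Ccl24 had 0. Of 20938 genes 65.5% had at least 1. Set against 3' UTRs of 80% to 125% of its own length, Ccl12 (167 bases) had a count reached by 0.509% of 1376 genes and Ccl3 (409 bases) one reached by 1.14% of 2012, whereas the count of Ccl9 (2465 bases) was reached by 46.6% of 2813. The windows of 30 bases with most ATTTA are shown for Ccl12 and Ccl3, which had the same count, and for Ccl2 and Ccl4 of the same 2 gene groups. Capitals mark ATTTA, and all are written 5′ to 3′ on the strand of the gene.
Ccl12, chr11:82103325-82103354, plus strand: ATTTAaacaaacttgcttaaataatATTTA
Ccl2, chr11:82037193-82037222, plus strand: tgatgccttaattaatattaaacttATTTA
Ccl3, chr11:83648085-83648114, minus strand: gactcttcacttgaaattttATTTAATTTA
Ccl4, chr11:83664473-83664502, plus strand: ttcagatttcctgcccctcttcttaATTTA
Both Ccl12 and Ccl3 hold 2 copies in their window.

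Most of the genes had the same leading gate in both libraries. Ccl2, Ccl6 and Ccl9 were highest in the Csf3r gate and next in the macrophage and Ly6c2 gates. For Ccl2 and Ccl9 the intervals of the first 2 gates overlapped in the library labelled Runx3. Csf3r-gate cells with a Csf1r UMI held Ccl2 at 85.3 and 213 CPM and Ccl9 at 117 and 190 CPM. Those without one held Ccl2 at 30.4 and 57.9 CPM and Ccl9 at 39.9 and 54.8 CPM. The macrophage gate was above the latter, at 58.0 and 163 CPM for Ccl2 and 62.5 and 144 CPM for Ccl9. Ccl6, at 269 and 263 CPM without Csf1r, stayed above the macrophage gate. Ccl7 and Ccl12 were highest in the macrophage gate, and Ccl5 was highest in the NK gate. Ccl3 was highest in the Csf3r gate of both. Ccl4 was highest in the macrophage gate of the library labelled Runx3_fl, with an interval that overlapped the Csf3r gate's, and in the NK gate of the library labelled Runx3. Ccl8 led in the Csf3r gate of the library labelled Runx3_fl (6.31 CPM, macrophage gate 5.95) and in the macrophage gate of the other. Ccl24 led in the macrophage gate of the library labelled Runx3_fl and in the cDC gate of the other (8.53 CPM, macrophage gate 6.63). The intervals of the gates given in brackets overlapped. The highest gate exceeded the B gate, taken as the background, by 59.8-fold and 10.5-fold for Ccl3, 31.8-fold and 9.80-fold for Ccl4, 26.5-fold and 35.1-fold for Ccl5, 11.8-fold and 6.48-fold for Ccl2, 43.2-fold and 9.08-fold for Ccl6, and 37.0-fold and 6.12-fold for Ccl9.

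**Figure D1:**
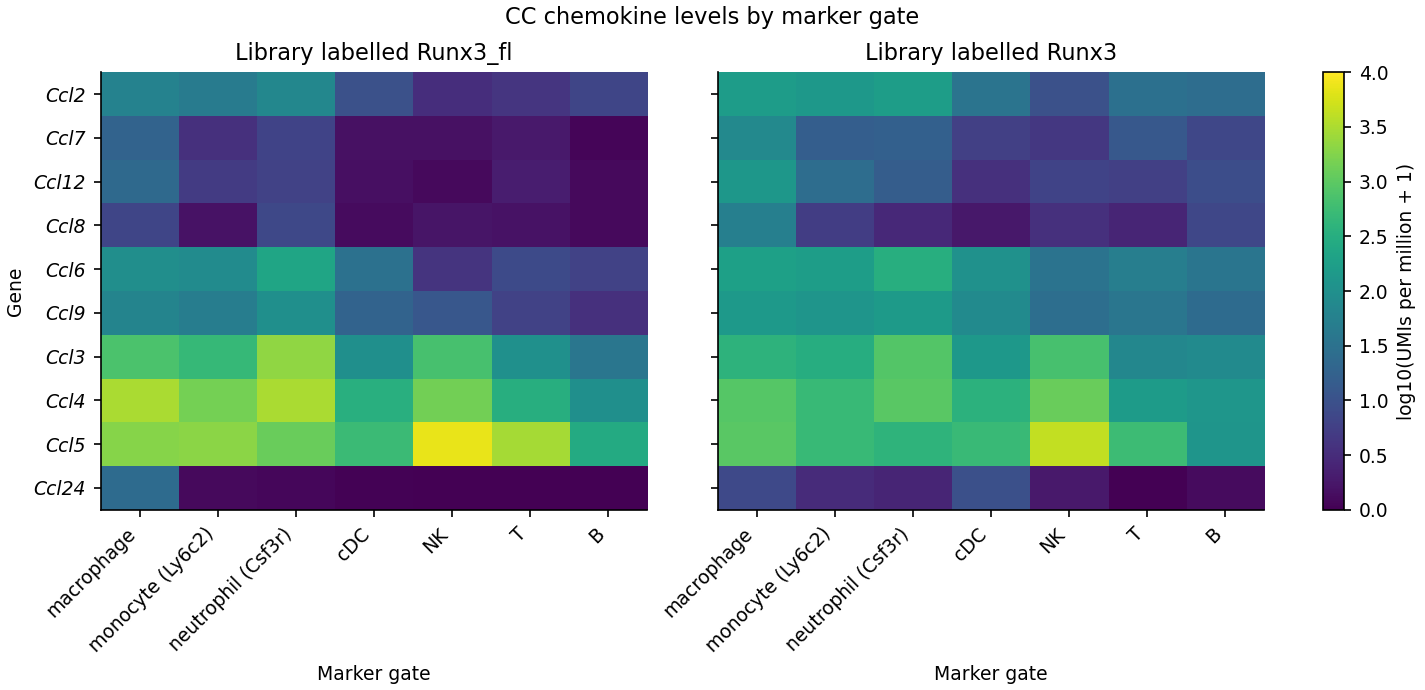
Heat maps of log10(CPM + 1) for the 10 chemokine genes (rows) in 7 marker gates (columns), 1 panel per library. Ccl5 in the NK gate was the highest value in both panels (7445 and 4221 CPM). Ccl7, Ccl8, Ccl12 and Ccl24 were at 25.6 CPM or lower outside the macrophage gate.

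In the macrophage gate the ligands of Ccr2 and Ccl8 were higher in the library labelled Runx3, and Ccl4 was lower. The 7 macrophage markers of that gate were also higher there, summing to 3098 and 4697 CPM, with Mrc1 at 67.5 and 166 CPM. The part of gate make-up in the chemokine differences was not tested. At a minimum of 10 CPM averaged over the libraries all 10 genes were counted: 5 were at least 2-fold higher in the library labelled Runx3 (Ccl2, Ccl7, Ccl8, Ccl9 and Ccl12), against 8.22% of 7601 genes in that gate, and 2 were at least 2-fold higher in the library labelled Runx3_fl (Ccl4 and Ccl24), against 2.84%. The other 3, Ccl3 (-0.94), Ccl5 (-0.99) and Ccl6 (0.99), stopped just short of 2-fold on the log2 scale. The median log2 ratio, library labelled Runx3 over library labelled Runx3_fl with 1 CPM added to each, was 1.09 for the members and 0.16 for all genes. With the median gene set to a ratio of 0, Ccl3 and Ccl5 also passed and the split became 5 and 4.

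Ccl2, the main monocyte attractant of the group, was at 58.0 CPM (95% Poisson interval 51.8 to 64.8, 312 UMIs) and 163 CPM (153 to 175, 838 UMIs) in the macrophage gate. The Ly6c2 gate, at 45.7 and 135 CPM, and the Csf3r gate, at 70.5 and 166 CPM, had the same direction, with log2 ratios of 1.48, 1.54 and 1.22 in the 3 gates. The macrophage-gate ratio stayed between 1.12 and 1.78 over 12 alternatives. In the Csf3r gate it was 0.91 among cells without a Csf1r UMI. The summed neutrophil markers moved with Ccl2. In the macrophage gate the 7 summed to 108 and 368 CPM, with 4 and 4 of them at 10 CPM or more and 0 at 0. S100a8 (10.4 and 124 CPM) and S100a9 (19.0 and 142 CPM) carried most of that rise. Csf3r was at 29.9 and 42.9 CPM, and Hdc alone was lower, at 43.3 and 39.4 CPM. In the Ly6c2 gate the sums were those given above, with 3 and 6 at that level and Csf3r at 0 by construction. The part of neutrophil-marker RNA in these differences was not tested. Ly6c2-gate cells with a Csf1r UMI, in which the neutrophil gene S100a8 was at 11.7 and 170 CPM against 26.2 and 2058 CPM in the whole gate, held Ccl2 at 73.7 and 184 CPM, Ccl9 at 70.8 and 162 CPM and Ccl12 at 6.09 and 27.1 CPM. Their ratios of 1.31, 1.18 and 1.99 were each past 2-fold.

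Ccl7 and Ccl12, which share the receptor Ccr2 with Ccl2, had their highest level in the macrophage gate of both libraries. Ccl7 stood at 18.0 CPM (interval 14.6 to 22) and 76.3 CPM (interval 68.9 to 84.2), for a log2 ratio of 2.02. A few cells carried much of it: the cell with most held 107 of the 391 UMIs in the library labelled Runx3, and leaving out the 5% of cells with most UMIs in all brought the ratio to 0.98. For Ccl12 the levels were 22.7 CPM (18.8 to 27.1) and 128 CPM (119 to 138), a ratio of 2.45 that stayed between 1.88 and 2.89. Its share of cells with a UMI, after every cell was thinned to 2000 UMIs, was 2.57% and 10.5% in the macrophage gate and 0.248% and 0.509% in the B gate. In the Ly6c2 gate Ccl12 was at 3.98 and 25.6 CPM, of which 1 cell of the library labelled Runx3 gave 50 of 193 UMIs.

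Ccl8, at the end of the same gene group, had 5.95 CPM (4.07 to 8.40) and 52.5 CPM (46.4 to 59.1) in the macrophage gate, the largest ratio of the members there at 2.94. It was rare, with UMIs in 2.53% and 8.62% of cells before thinning and 1.29% and 3.84% after, and 1 cell held 86 of its 269 UMIs in the library labelled Runx3. The B gate gave 0.490% and 1.60% before thinning, at median depths of 17727 and 6093.5 UMIs per cell against 13531 and 9991 in the macrophage gate. Giving each cell equal weight lowered the ratio to 2.09. In the Csf3r gate the order was the other way, 6.31 and 1.88 CPM, but 1 cell gave 53 of the 69 UMIs in the library labelled Runx3_fl.

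Ccl6 and Ccl9, ligands of Ccr1, were higher in the library labelled Runx3 in each of the 7 gates. In the macrophage gate the levels of Ccl9 were 62.5 CPM (56.0 to 69.5) and 144 CPM (133 to 154), for a ratio of 1.19, and those of Ccl6 93.4 CPM (85.4 to 102) and 187 CPM (175 to 199), for a ratio of 0.99, beside the neutrophil markers given for Ccl2. Thinning cells to 2000 UMIs reduced the ratio of Ccl9 to 0.54. Their highest levels were in the Csf3r gate, where Ccl6 was at 224 and 323 CPM and Ccl9 at 95.9 and 149 CPM, neither past 2-fold. Among Csf3r-gate cells without Csf1r, Ccl6 was at 269 and 263 CPM, so its difference was not detectable in those cells. Ccl9 was still higher there in the library labelled Runx3, at 39.9 CPM (33.0 to 47.8) and 54.8 CPM (47.9 to 62.4).

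The cDC, T, NK and B gates showed the same direction for Ccl6 and Ccl9, and for Ccl2 where it reached 10 CPM. In the T gate Ccl2 was at 3.15 and 28.8 CPM, Ccl6 at 6.87 and 49.6 CPM and Ccl9 at 5.19 and 36.6 CPM. In the B gate they were at 5.96 and 25.6 CPM, 5.18 and 35.5 CPM, and 2.59 and 24.3 CPM. Markers of other cells moved with them in the same gates: the 7 neutrophil markers summed to 11.9 and 291 CPM in the B gate and 30.8 and 268 CPM in the T gate, with 0 and 4 of them at 10 CPM or more in both gates, and the 7 macrophage markers to 29.4 and 203 CPM and 48.1 and 165 CPM, with 1 and 6 of them at that level in the B gate and 2 and 6 in the T gate. In these gates 0 markers of either list were at 0. The NK gate had Ccl6 at 2.98 and 32.6 CPM, from 34 and 37 UMIs, and Ccl9 at a ratio of 1.19, from 126 and 30 UMIs. Neutrophil markers there summed to 11.8 and 234 CPM, 0 and 4 of them at 10 CPM or more and Cxcr2 at 0 in the library labelled Runx3_fl, and macrophage markers to 12.5 and 102 CPM, 0 and 5 at that level. RNA released from other cells and droplets with several cells were not separated from expression by these gated cells, and their part in the result was not tested. In the cDC gate Ccl9 was at 17.9 and 81.2 CPM, Ccl6 at 29.9 and 104 CPM and Ccl2 at 8.81 and 33.5 CPM, and there the neutrophil markers summed to 19.4 and 318 CPM, 0 and 4 of them at 10 CPM or more, and the macrophage markers to 58.9 and 191 CPM, 2 and 5 at that level. Cells with a UMI of Cd209a, a marker of one dendritic subset, were 130 of 955 and 154 of 492 of that gate and held more Ccl9, 67.1 and 112 CPM, than cells with Xcr1, 4.28 and 16.3 CPM.

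**Figure D2:**
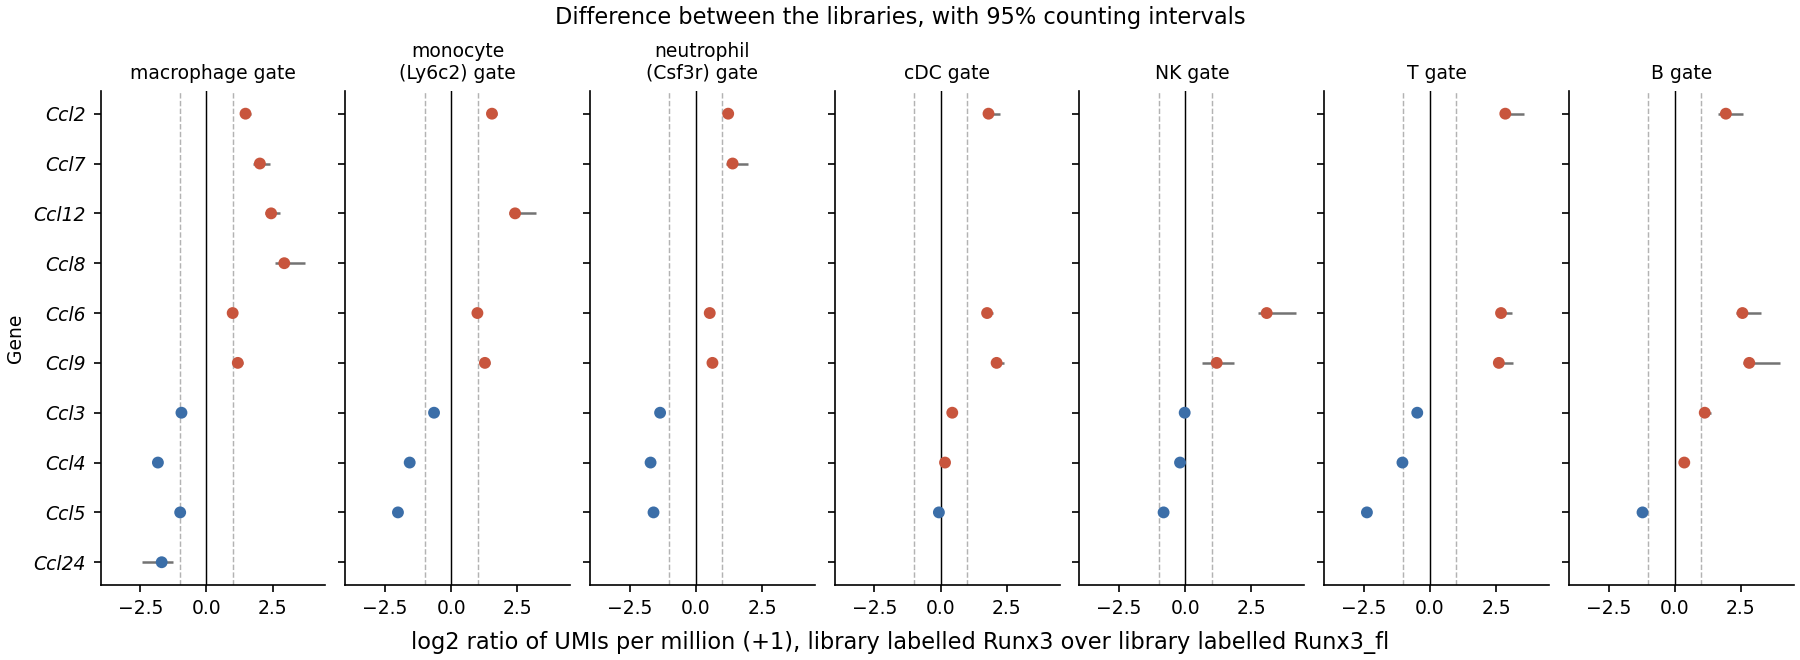
The log2 ratio of CPM plus 1, library labelled Runx3 over library labelled Runx3_fl (horizontal), for each gene at 10 CPM or more (rows) in 7 gates. Lines are 95% counting intervals of the ratio without the added 1, so a low gene's point lies off centre; dashed lines mark 2-fold; Ccl2, Ccl6 and Ccl9 lay right of 0 wherever shown, and Ccl5 left.

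Ccl3 and Ccl4 were lower in the library labelled Runx3 in the macrophage, Csf3r and mixed Ly6c2 gates, and also in the T gate. Ccl4 stood at 3120 CPM (3073 to 3167) and 876 CPM (850 to 901) in the macrophage gate, at 3087 and 943 CPM in the Csf3r gate and at 1462 and 493 CPM in the Ly6c2 gate, with ratios of -1.83, -1.71 and -1.56. These stayed at -1.79, -1.21 and -1.30 or lower, in that order, under every alternative. Ccl3 was at 2155 and 845 CPM in the Csf3r gate, a ratio of -1.35 that stayed at -1.18 or lower under every alternative. The macrophage gate held it at 729 CPM (706 to 752) and 379 CPM (362 to 396), a ratio of -0.94, and past 2-fold under 4 of 12 alternatives. In the Ly6c2 gate it was at 485 and 309 CPM and past 2-fold under none. The T gate held Ccl4 at 323 and 156 CPM, a ratio of -1.04, and Ccl3 at 99.4 and 71.0 CPM, a ratio of -0.48. There the ratio of Ccl4 passed 2-fold under 7 of 12 alternatives and that of Ccl3 under none.

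The NK gate gave different values for this pair. Ccl3 had 695 CPM (680 to 711) and 685 CPM (638 to 735) there, with a ratio of -0.02 and a counting interval of -0.13 to 0.09. Ccl4 was at 1420 and 1238 CPM, a ratio of -0.20. In the cDC gate Ccl3 was at 98.0 and 134 CPM and Ccl4 at 328 and 369 CPM. In the B gate Ccl3 was at 36.0 and 80.4 CPM, a ratio of 1.14 that fell to 0.55 without the 5% of cells with most UMIs. The make-up of that gate differed between the libraries, and Ccl3 was at 43.1 and 71.0 CPM in its cells with Ms4a1 and at 34.7 and 95.8 CPM in those without. The difference in ratio between gates was not tested.

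Ccl5, a chemokine of NK cells and effector T cells, was lower in the library labelled Runx3 in all 7 gates in value. The T gate had the largest gap, 2863 CPM (interval 2847 to 2879) and 548 CPM (525 to 572), a ratio of -2.38. Cells with Cd8a and without Cd4 held 4111 and 1384 CPM, and cells with Cd4 and without Cd8a held 1519 and 114 CPM. Cd8a cells were 1166 and 82 of the T gate and Cd4 cells 1359 and 128. The NK gate was at 7445 and 4221 CPM, a ratio of -0.82 that passed 2-fold under 1 of 12 alternatives.

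Ccl5 was at 1893 and 952 CPM in the macrophage gate, 1227 and 405 CPM in the Csf3r gate and 530 and 507 CPM in the cDC gate. The mixed Ly6c2 gate held 2007 and 498 CPM. Its cells without a Csf1r UMI, 605 of 1047 and 1165 of 1713, held 14935 of 21706 and 2143 of 3756 of those Ccl5 UMIs. They had Ccl5 at 2852 and 572 CPM and Klrb1c at 69.1 and 15.8 CPM. The macrophage ratio of -0.99 became -2.07 when every cell that passed more than 1 gate was left out. In the cDC gate the ratio was -0.06, and 1 cell of the library labelled Runx3 held 768 of the 3154 UMIs. Its cells with a Ccr7 UMI, 643 and 214, held Ccl5 at 699 and 991 CPM, higher in the library labelled Runx3. Those with Xcr1, at 148 and 34.3 CPM, and those with Cd209a, at 226 and 112 CPM, went the other way. These subsets can share cells. The sum of 7 NK markers moved with Ccl5 in the macrophage, Ly6c2, Csf3r and T gates. It was 198 and 29.8 CPM in the macrophage gate, 1209 and 180 CPM in the Ly6c2 gate and 262 and 27.2 CPM in the Csf3r gate. In the T gate it was 1883 and 143 CPM, against 7886 and 5896 CPM in the NK gate. The cDC gate differed, with NK markers that summed to 102 and 20.1 CPM beside Ccl5 at 530 and 507 CPM. Of the 7, 4 and 1 were at 10 CPM or more in the macrophage gate and in the Csf3r gate, 6 and 4 in the Ly6c2 gate and 4 and 2 in the T gate. Gzma carried most of each sum, at 147 and 16.8 CPM (macrophage), 940 and 110 CPM (Ly6c2), 203 and 15.7 CPM (Csf3r) and 1767 and 103 CPM (T). In the T gate Klre1 was at 9.84 and 9.10 CPM, Klrb1c at 7.13 and 4.42 CPM and Eomes at 31.8 and 18.7 CPM. Prf1 was at 54.2 and 6.24 CPM there, Klra8 at 11.6 and 1.04 CPM and Ncr1 at 1.21 and 0 CPM. The defining gene Ncr1 was at 0.744 and 0.780 CPM in the macrophage gate and, by construction, at 0 in the Ly6c2 gate. The part of NK-cell RNA in these differences was not tested. Ly6c2-gate cells with a Csf1r UMI held 1214 and 425 CPM of Ccl5, with Klrb1c at 2.87 and 3.16 CPM. Klrb1c was also nearly level in the macrophage gate, at 5.21 and 4.88 CPM, where the NK sum was much lower in the library labelled Runx3. It therefore cannot show how much NK RNA this subset held, and Gzma was not counted in it.

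Ccl24 reached 10 CPM on average in no gate but the macrophage gate, where it stood at 23.6 and 6.63 CPM. Only 0.759% of the 395 macrophage-gate cells of the library labelled Runx3_fl held a UMI of it, and 1 cell held 90 of the 127 UMIs. In the library labelled Runx3 its 34 UMIs were in 2.95% of cells. The ratio of -1.69 became 1.38 when the 1% of cells with most Ccl24 UMIs were left out, and 0.17 without cells holding a Xist UMI, so its direction rested on a few cells. In the cDC gate of the library labelled Runx3 a single cell gave 51 of 53 UMIs, and 0 UMIs were found in the NK gate of the library labelled Runx3_fl, where the limit set for a count of 0, 3 counts, would be 0.263 CPM.

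Counted over the other gates, the members past 2-fold were as follows. In the Ly6c2 gate 7 members reached the minimum, of which 3 were higher in the library labelled Runx3 (Ccl2, Ccl9 and Ccl12, against 7.5% of 7893 genes) and 2 in the library labelled Runx3_fl (Ccl4 and Ccl5, against 2.6%). In the Csf3r gate 7 reached it, with 2 higher (Ccl2 and Ccl7, against 9.11% of 7593 genes) and 3 lower (Ccl3, Ccl4 and Ccl5, against 3.04%). The cDC gate had 3 of 6 higher (Ccl2, Ccl6 and Ccl9, against 6.08% of 7724 genes) and 0 lower, against 1.36%. The NK gate had 2 of 5 higher (Ccl6 and Ccl9, against 4.1% of 7374 genes) and 0 lower, against 0.881%. The T gate had 3 of 6 higher (Ccl2, Ccl6 and Ccl9, against 10.9% of 7907 genes) and 2 lower (Ccl4 and Ccl5, against 7.87%). The B gate had 4 of 6 higher (Ccl2, Ccl3, Ccl6 and Ccl9, against 17.6% of 7763 genes) and 1 lower (Ccl5, against 14%). The median log2 ratio of the members in these gates was 0.99, 0.53, 1.10, -0.02, 1.06 and 1.54 in that order, and that of all genes 0.07, 0.21, 0.09, 0.06, 0.03 and 0.21.

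Shares of cells had the same direction for the genes given here once each cell was thinned to 2000 UMIs and shallower cells were left out. These were few in the library labelled Runx3_fl, 6 in the macrophage gate and 108 in the Csf3r gate, and more in the library labelled Runx3, with 50 and 270, and 810 of 1713 in its Ly6c2 gate. Ccl3 was detected in 72.0% (95% Clopper-Pearson interval 69.5 to 74.4) and 47.1% (44.4 to 49.8) of Csf3r-gate cells, and in 53.7% (48.6 to 58.8) and 34.8% (30.1 to 39.7) of macrophage-gate cells. The B gate gave 4.95% and 9.81%, so its background was the higher in the library where the myeloid share was the lower. Ccl4 was in 75.6% and 47.3% of macrophage-gate cells and 8.91% and 11.2% of B-gate cells. Ccl5 was in 95.6% and 88.6% of NK-gate cells, 75.6% and 25.3% of T-gate cells and 15.1% and 8.58% of B-gate cells. Ccl2 was in 8.997% and 19.2% of macrophage-gate cells and 15.5% of Csf3r-gate cells of the library labelled Runx3, against 5.94% in the other, with 0.495% and 2.91% in the B gate. Before thinning, the macrophage-gate shares were 80.3% and 66.7% for Ccl3, 89.1% and 69.2% for Ccl4, 87.6% and 52.8% for Ccl5, and 23.3% and 39.2% for Ccl2.

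**Figure D3:**
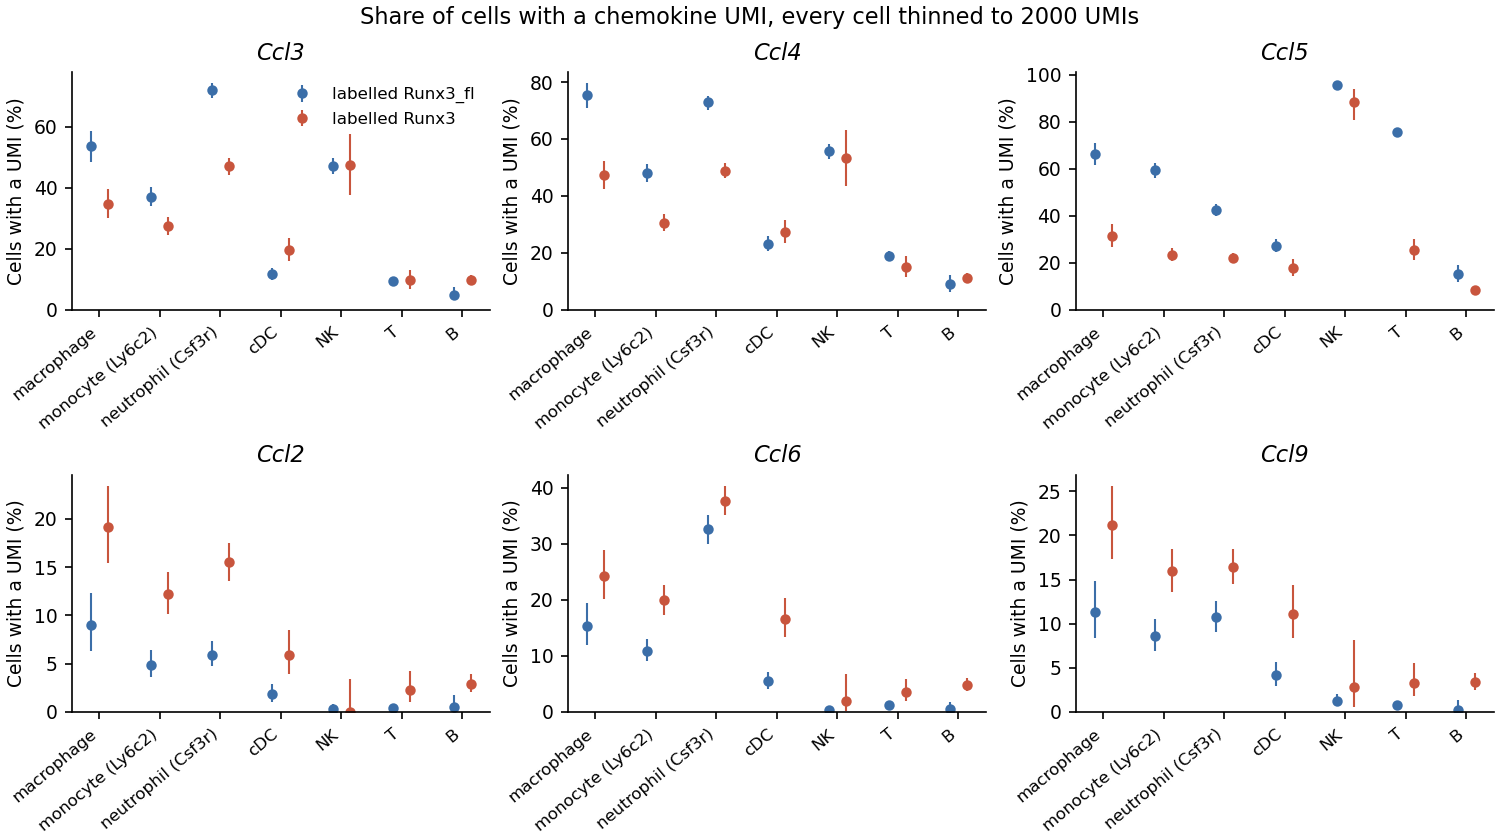
Percent of cells with at least 1 UMI after thinning every cell to 2000 UMIs (vertical), by gate (horizontal), for 6 chemokines; points are the 2 libraries and bars 95% Clopper-Pearson intervals, which cover counting error only. Ccl3 and Ccl4 in the NK gate overlap between libraries, while in the macrophage and Csf3r gates they do not.

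Within single cells the paired genes Ccl3 and Ccl4 were found together. Both were detected in 47.8% and 22.5% of thinned macrophage-gate cells, where the product of their separate shares would be 40.6% and 16.5%, and in 58.8% and 31.6% of Csf3r-gate cells, with products of 52.4% and 23.0%. Ccl2 and Ccl12 were together in 0.514% and 4.09% of macrophage-gate cells, 2 and 16 cells, with products of 0.231% and 2.01%. Ccl4 and Ccl5 were together in 55.0% and 16.4% of macrophage-gate cells, also above their products of 50.1% and 14.9%. No chance level was tested.

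The macrophage and Csf3r gates were also divided by single genes. Macrophage-gate cells with a UMI of the mannose receptor Mrc1, a gene of tissue-resident macrophages, were 79 of 395 and 141 of 441 cells. They held Ccl12 at 42.7 and 233 CPM, Ccl7 at 52.5 and 157 CPM and Ccl8 at 8.90 and 118 CPM. Of the gate's UMIs they held 48 of 122 and 489 of 657 for Ccl12 and 59 of 97 and 329 of 391 for Ccl7. For Ccl8 they held 10 of 32 and 247 of 269. Macrophage-gate cells without Ly6c2, 110 and 71 cells, held Ccl5 at 1695 and 228 CPM, while those with Ly6c2, 285 and 370 cells, held it at 1952 and 1053 CPM. Cells with Nos2, the inducible nitric oxide synthase, were 100 and 27 and held Ccl5 at 2769 and 2992 CPM, so the lower Ccl5 of the library labelled Runx3 was not seen among them. They held Ccl2 at 37.2 and 189 CPM and Ccl12 at 8.95 and 124 CPM. In the Csf3r gate, cells without Csf1r held Ccl3 at 3984 and 1104 CPM and cells with it at 1477 and 733 CPM. S100a8 stood at 4292 and 46098 CPM in the former and 712 and 6748 CPM in the latter, so cells of this gate also differed in other genes.

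**Figure D4:**
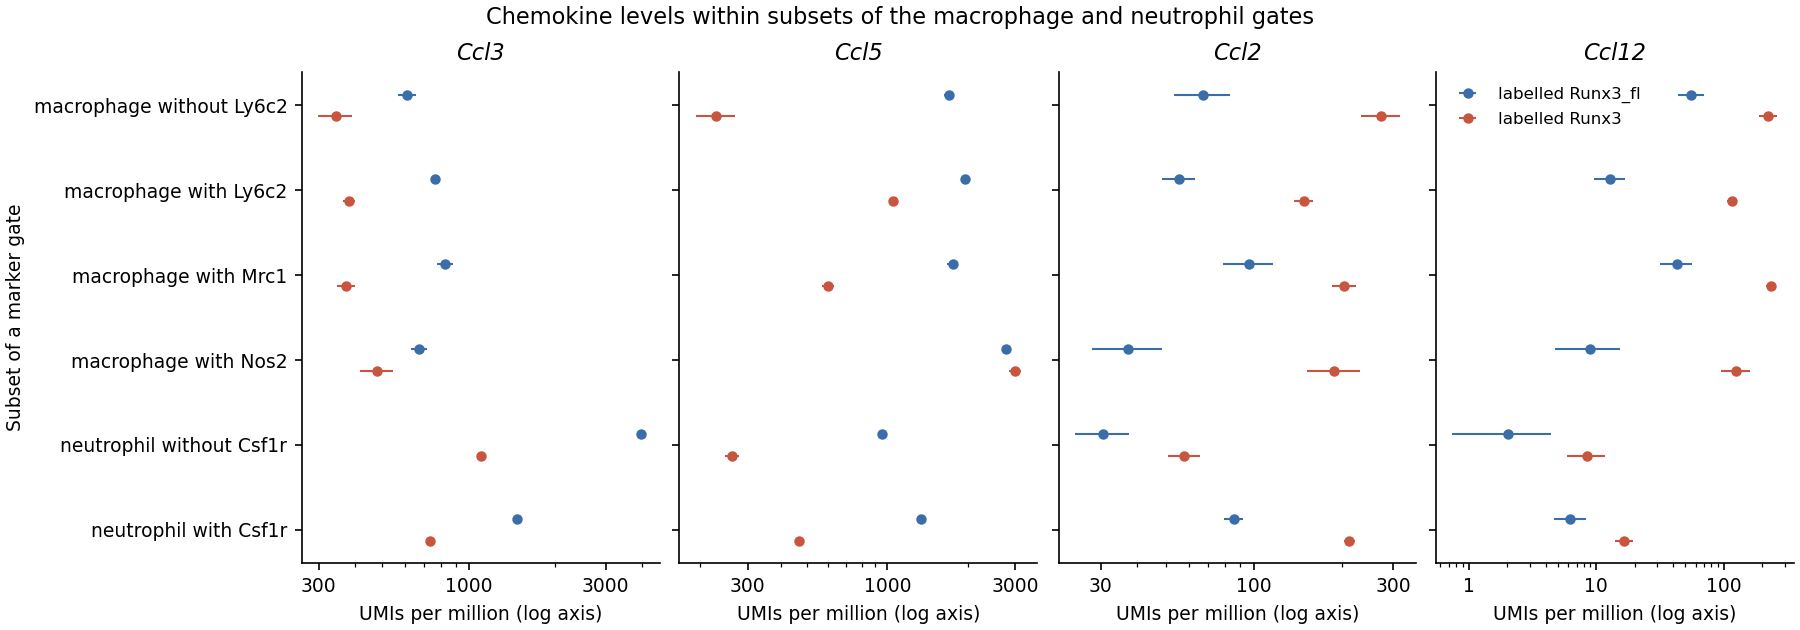
Level in CPM (horizontal, log axis) of 4 chemokines in subsets of the macrophage and Csf3r (neutrophil) gates (rows); points are the 2 libraries and bars 95% Poisson intervals. Ccl2 and Ccl12 were higher in the library labelled Runx3 in each of these subsets, Ccl3 lower in each, and Ccl5 lower in all but the cells with Nos2.

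Genes that followed the members over the 14 gate-by-library sums were sought among 5591 genes at 50 CPM or more in at least 1 of them, with Pearson's r on log2(CPM + 1). These sums share libraries and depth, and r is a description. Ccl3 and Ccl4 were each other's nearest gene, at 0.95, followed by Metrnl for Ccl3 (0.93) and Nfkbiz for Ccl4 (0.93). Ccl7 was nearest to Ccl12 (0.96) and Rnase4 (0.96), and Ccl12 to Stab1, a scavenger receptor of tissue macrophages (0.97), and Ccl7. Ccl8 was nearest to Pf4 (0.91) and Ccl12 (0.89). Ccl2 followed Lrp1 (0.98) and Fgd4 (0.97), Ccl6 followed Sirpb1b and Rhov (both 0.98), Ccl9 followed Ppard (0.99) and Tnfrsf21 (0.98), and Ccl5 followed AW112010 (0.97) and Ppig (0.91). Ccl24 did not reach 50 CPM. Between the members, r was 0.95 for Ccl2 and Ccl6, 0.92 for Ccl2 and Ccl9, and -0.37 for Ccl2 and Ccl5.

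Among chemokine receptors, Ccr1, Ccr2 and the atypical receptor Ccrl2 reached 10 CPM in the macrophage gate and were within 2-fold there. Ccr2, the receptor of Ccl2, was at 297 and 259 CPM and Ccr1 at 195 and 145 CPM. Ccrl2 was at 1138 and 585 CPM in the macrophage gate and at 2041 and 885 CPM in the Csf3r gate, the latter past 2-fold. In the B gate Ccr1, Ccr2 and Ccrl2 were each at least 2-fold higher in the library labelled Runx3, Ccr2 at 7.90 and 43.0 CPM, together with the macrophage and neutrophil markers given above, and in the T gate Ccr1 was, at 10.3 and 26.5 CPM. Of 10 other CC chemokines 2 reached the minimum in the macrophage gate: Ccl22, a Ccr4 ligand of dendritic cells, at 15.8 and 6.44 CPM, and Ccl25 at 25.7 and 28.9 CPM. In the Ly6c2 gate Ccl17 was at 4.53 and 16.4 CPM, and the cDC gate held Ccl22 at 181 and 130 CPM.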

How the data were processed

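Per the labels, libraries were made with the 10x Genomics 3′ kit, version 3, and the submitters' processing notes name mm10 and Seurat 4. The deposited matrices hold UMI counts per gene and cell, which per the file headers the authors obtained with Cell Ranger 7.1.0. The counts are whole numbers and not normalized. Here cells were filtered by the limits the study states, whose upper gene limit was the only treatment of doublets. A cell passing several of the 6 marker gates went to the one with at least 3 times the marker UMIs of the next, and otherwise to none (656 and 914 cells). Counts were summed per gate and library, given as CPM with exact Poisson intervals, and called at 2-fold with a pseudocount of 1 CPM. Shares carry exact binomial intervals, and ratio intervals are conditional binomial, all at 95%. With 1 library per group no test was possible. The members, marker lists and gates were chosen with earlier results of these data known. Text names all members, receptors and other CC chemokines from a list, 1 of which is not reported here, and the 2 genes most like each member. The ratio calculation was tested on simulated macrophage-gate sums with Poisson counting error only. That simulation left out variation between cells and between libraries, so it does not bear on those. Of 32285 gene IDs 32158 were in GENCODE M21. Python 3.11.15, numpy 2.4.6, scipy 1.17.1 and pandas 2.3.3 were used.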

Additional observations from a re-analysis of the deposited data

Results flagged for a closer look

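Ccl3 moved in opposite directions between gates. Its log2 ratio, library labelled Runx3 over library labelled Runx3_fl, was 1.14 in the B gate (36.0 and 80.4 CPM) and -1.35 in the Csf3r (neutrophil) gate (2155 and 845 CPM). The B-gate ratio stayed past 2-fold under 4 of 12 alternatives, with a lowest value of 0.55. That of the Csf3r gate stayed past 2-fold under all 13. The B gate was the gate taken as background, and its make-up differed between the libraries. With 1 library per group the difference between the gates was not tested.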

How the results depend on the processing

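Of 47 log2 ratios of members at 10 CPM or more, 32 were past 2-fold, 31 of these kept their direction under every one of 11 planned and 4 added alternatives that applied to them, and 22 stayed past 2-fold under every one. The added alternatives were chosen after seeing the data. They left out shared barcodes, cells with a Xist UMI, Csf3r-gate cells with a Csf1r UMI, or Ly6c2-gate cells without one. The exception in direction was Ccl24 in the macrophage gate, at 1.38 without the 1% of cells with most of its UMIs and 0.17 without cells holding a Xist UMI. A member could drop out of a count because its ratio fell below 2-fold or because its mean level fell below 10 CPM. Of 38 such losses over all alternatives, 16 were at the level minimum alone, with the ratio still past 2-fold, and 22 at the ratio. The counts moved as follows, though not every change is listed. In the macrophage gate the 5 members higher in the library labelled Runx3 became 6 with 2 UMIs per gate marker. That gate lost Ccl9 with thinning (0.54) and Ccl7 without the 5% of cells with most UMIs (0.98). Without the top 1% of cells its Ccl8 was below the minimum at 2.55. In the Ly6c2 gate Ccl12 was below the minimum with thinning (1.43) and without the top 1% (1.91). Members higher in the library labelled Runx3 in the Csf3r gate, 2 in the report, were 1 with cells passing several gates left out, the top 1% of cells left out or Xist cells left out, in which Ccl7 was below the minimum at ratios of 1.13, 1.90 and 1.78, 1 with a pseudocount of 10 CPM (Ccl7 at 0.75), 4 with each cell in every gate it passes, thinning or no level minimum, and 0 without Csf1r cells, with Ccl2 at 0.91 and Ccl7 at 1.52 but below the minimum. In the Ly6c2 gate 3 became 5 with equal weight per cell and 6 with no minimum. In the NK gate 2 became 1 with thinning, Ccl9 being below the minimum at 1.18, 1 with the larger pseudocount (Ccl9 at 0.79), 0 without the top 1% of cells, both below the minimum at 2.72 (Ccl6) and 2.23 (Ccl9), and 6 with no minimum, and in the cDC gate 3 became 6 with no minimum. In the T gate 3 became 5 with each cell in every gate or no minimum, and in the B gate 4 became 2 with thinning (Ccl3 at 0.97, Ccl9 below the minimum at 2.45), without the 5% of cells with most UMIs (Ccl2 at 0.91, Ccl3 at 0.55) or without the top 1% (Ccl2 and Ccl9 below the minimum at 3.59 and 3.85), and 7 with no minimum. Members higher in the library labelled Runx3_fl in the macrophage gate, 2 in the report, were 4 with several-gate cells left out, thinning or the median gene set to 0, and 1 without Xist cells. In the T gate 2 became 1 with each cell in every gate, thinning, the larger pseudocount, the top 1% left out or Xist cells left out. With 2 UMIs per gate marker, the NK gate's 0 became 1 and the B gate's 1 became 0. No paired analysis was possible because each group had 1 library, and for the same reason no replicate could be left out. Depth limits Ccl7, Ccl8, Ccl12 and Ccl24 most, since outside the macrophage gate few cells held a UMI of them.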
